A study of Mus musculus with 12 samples.

Results

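The genes described here are 8 of the 43432 genes counted in mouse sciatic nerve, chosen by name as the enzymes that carry glycerol 3-phosphate to triglyceride, together with a lipase and a droplet protein. They are Gpd1, Gpam, Agpat2, Lpin1, Dgat1, Dgat2, Pnpla3 and Lpl, and all 8 were matched on the symbols that the authors' tables pair with Ensembl identifiers. They were chosen with results of these libraries known, above all their lower levels in Mtmr2 KO than in WT nerves, so for that comparison their values are given as a description and no call is read from it. A comparison of niacin-treated with untreated Mtmr2 KO nerves rests on the same untreated libraries. Genes chosen for low values there tend to come out higher against them, so its p-values are no independent test of a rise. All 8 passed the filter on low counts, through which 17257 genes were tested.

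Triglyceride is built on glycerol 3-phosphate, which Gpd1 makes from a glycolytic intermediate. Gpam adds the first fatty acid, Agpat2 adds the next and gives phosphatidic acid, Lpin1 removes the phosphate to give diacylglycerol, and Dgat1 or Dgat2 adds the last fatty acid. Lpl, outside cells on the capillary wall, releases fatty acids from circulating triglyceride, and Pnpla3 sits on lipid droplets. Several of these genes are expressed strongly in fat, and some in liver or muscle. In nerve, adipocytes lie in the epineurium around the fascicles, and Schwann cells make large amounts of membrane lipid for myelin from the same early intermediates.

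RNA-seq was performed on sciatic nerves of mice at 1 month of age, 4 mice in each of 3 groups, 1 nerve per mouse and 3 males with 1 female per group. WT mice carried Mtmr2 wt/wt and were untreated; Mtmr2 KO mice carried Mtmr2 -/-, a constitutive null that models the demyelinating neuropathy CMT4B1, and were untreated; niacin-treated Mtmr2 KO mice carried the same null allele and received niacin from P10 to P30, at 120 mg/Kg injected i.p. until P21 and then as a slow-release form by gavage. The labels do not say which library of a group came from the female. For Mtmr2 KO mice without niacin the labels list no treatment, while the study speaks of vehicle in one place, so untreated here means that no niacin was given. Niacin was given to no WT group, so its difference from WT holds genotype and treatment together.

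Libraries held 20763951 to 33191106 counts. Levels are given as CPM (counts scaled to a common library total) after TMM scaling, a scaling of the library totals that sets most genes level between libraries, and libraries are given by the numbers of their labels (WT 4497 to 4500, Mtmr2 KO 4501 to 4504, niacin-treated Mtmr2 KO 4505 to 4508). Some libraries stood apart. Mtmr2 itself measured 128 to 161 CPM in WT and 66.8 to 73.5 CPM in niacin-treated Mtmr2 KO nerves, but 143 CPM in the library labelled Mtmr2 KO 4503, inside the WT range, against 69.5 to 84.7 CPM in the other Mtmr2 KO libraries. A count over the whole gene does not show the deleted part alone. Whether this library was mislabelled or mixed was not tested, and it was kept under its label. Fold changes of some of the 8 genes are also given without it. Mtmr2 KO 4502 differed most from the libraries of its group, with macrophage markers summing to 1100 CPM against 468 to 665 CPM in the other 3. Skeletal muscle markers summed to 3372 and 3315 CPM in niacin-treated 4506 and 4507 and to at most 106 CPM in every other library.

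The promoter sequence just before the start was at hand for 4 of the 8 genes. It is shown for Agpat2 and Pnpla3, the pair called higher with niacin, beside Gpam and Lpin1, which were not called. Each line gives the 250 bases before the RefSeq start on the gene's strand (GRCm38.p6), in lower case with matches on either strand to the searched motifs in capitals. The windows are Agpat2 at chr2:26604418-26604667 (minus strand), Pnpla3 at chr15:84167566-84167815 (plus strand), Gpam at chr19:55127239-55127488 (minus strand) and Lpin1 at chr12:16610967-16611216 (minus strand).
Agpat2: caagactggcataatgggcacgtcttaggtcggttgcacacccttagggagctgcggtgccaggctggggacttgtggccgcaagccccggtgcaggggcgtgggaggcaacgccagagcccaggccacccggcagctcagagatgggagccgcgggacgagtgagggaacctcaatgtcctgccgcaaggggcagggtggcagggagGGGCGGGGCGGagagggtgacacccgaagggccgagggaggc
Pnpla3: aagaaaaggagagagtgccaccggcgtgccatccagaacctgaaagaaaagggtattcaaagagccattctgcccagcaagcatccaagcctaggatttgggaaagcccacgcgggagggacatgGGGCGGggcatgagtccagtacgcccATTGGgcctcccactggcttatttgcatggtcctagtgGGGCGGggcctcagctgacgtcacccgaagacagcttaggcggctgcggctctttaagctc
Gpam: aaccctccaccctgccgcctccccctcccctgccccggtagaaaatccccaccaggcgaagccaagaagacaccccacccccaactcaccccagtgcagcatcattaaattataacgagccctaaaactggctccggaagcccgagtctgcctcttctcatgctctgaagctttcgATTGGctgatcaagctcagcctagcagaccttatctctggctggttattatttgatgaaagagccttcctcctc
Lpin1: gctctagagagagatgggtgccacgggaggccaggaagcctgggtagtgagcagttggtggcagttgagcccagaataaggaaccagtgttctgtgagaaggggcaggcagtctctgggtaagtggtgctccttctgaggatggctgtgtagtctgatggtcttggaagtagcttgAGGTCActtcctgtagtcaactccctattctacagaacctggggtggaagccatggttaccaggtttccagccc
The motifs searched were the E-box CACGTG, the NF-Y box CCAAT, the GC box GGGCGG, the TATA box TATAAA, the nuclear receptor element AGGTCA and the C/EBP-like core TTGCAA. Agpat2 held 2 GC boxes that overlap by 1 base, and Pnpla3 held 2 GC boxes and 1 NF-Y box. Gpam held 1 NF-Y box, read on the other strand as in Pnpla3, and Lpin1 held 1 nuclear receptor element. Over all 32851 RefSeq windows of this length, 32.7% held a GC box, 33.8% an NF-Y box and 14% a nuclear receptor element. Agpat2 was the richest in G and C, at 69.2% with 16 CpG, against 58.4% with 11 CpG in Pnpla3, 54.8% with 7 CpG in Gpam and 54.8% with 1 CpG in Lpin1, where the median window had 52.4% and 6 CpG. A second Gpam start, at chr19:55099478-55099727, held 1 GC box, 1 nuclear receptor element and 21 CpG. A match of letters is not a bound site, and no reading of a factor is drawn from it.

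To compare genes with each other, levels were divided by the exon length of each gene (CPM per kb). In WT nerves Dgat2 (81.4 ± 24.2 CPM per kb, mean ± SD, n = 4), Gpd1 (78.3 ± 14.4) and Lpl (64.9 ± 5.73) led, and their ranges overlapped. Agpat2 followed at 40.4 ± 9.06 CPM per kb, below every Lpl value. Pnpla3 (23.4 ± 10.6), Dgat1 (17.8 ± 3.52), Gpam (11 ± 1.82) and Lpin1 (7.79 ± 1.19) closed the order, in which only Lpl over Agpat2 and Dgat1 over Gpam were neighbours whose ranges did not overlap. In Mtmr2 KO nerves the order became Gpd1 (37.1), Lpl (30.7), Agpat2 (21.1), Dgat2 (18.0), Dgat1 (12.7), Gpam (8.64), Lpin1 (6.57) and Pnpla3 (5.94 CPM per kb), and every neighbouring pair overlapped. Dgat2 thus stood in place 1 in WT and in place 4 in Mtmr2 KO nerves, and Pnpla3 in places 5 and 8. Under niacin the order was Lpl (68.7), Gpd1 (55.1), Agpat2 (54.9), Dgat2 (50.6), Pnpla3 (26.9), Dgat1 (17.7), Gpam (8.21) and Lpin1 (6.10 CPM per kb), with no overlap between Dgat1 and Gpam alone.

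Gpd1 (chr15:99717515-99725005, plus strand, GRCm38 with GENCODE M21, as for all genes below) measured 268, 267, 210 and 182 CPM in WT, 173, 62.1, 93.2 and 111 CPM in Mtmr2 KO, and 132, 184, 149 and 188 CPM in niacin-treated Mtmr2 KO nerves. No Mtmr2 KO library reached the lowest WT library, while the niacin-treated libraries overlapped both groups. The log2 fold change was -1.08 ± 0.26 (SE) in Mtmr2 KO against WT, a level 2.11 times lower, and 0.57 ± 0.26 in niacin-treated against untreated Mtmr2 KO, which did not pass edgeR's quasi-likelihood test (Benjamini-Hochberg adjusted p = 0.233, exact permutation p = 0.0857). An antisense gene, Gm16537, shares 384 exon bases with it but was at most 0.147 CPM in any library.

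Gpam (chr19:55067268-55127238, minus strand), the mitochondrial enzyme of the first acylation, measured 78.7, 84.9, 72.2 and 56.6 CPM in WT, 60.3, 51.7, 70.9 and 47.3 CPM in Mtmr2 KO, and 49.2, 69.5, 50.1 and 50 CPM in niacin-treated Mtmr2 KO nerves. All 3 groups overlapped. Its log2 fold change was -0.34 ± 0.17 in Mtmr2 KO against WT and -0.07 ± 0.17 under niacin against untreated Mtmr2 KO (edgeR quasi-likelihood, Benjamini-Hochberg adjusted p = 0.838; exact permutation p = 0.743).

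Agpat2 (chr2:26593057-26604417, minus strand), the acyltransferase whose loss in humans causes a generalized lipodystrophy, measured 92.0, 110, 73.5 and 67.8 CPM in WT and 53.0, 49.9, 39.5 and 37.1 CPM in Mtmr2 KO nerves, with no overlap. In niacin-treated Mtmr2 KO nerves it measured 66.4, 101, 107 and 194 CPM, above every untreated Mtmr2 KO library, with 4508 higher than any WT library. The log2 fold change was -0.94 ± 0.27 in Mtmr2 KO against WT and 1.38 ± 0.27 under niacin against untreated Mtmr2 KO, a 2.61-fold rise that passed edgeR's quasi-likelihood test (Benjamini-Hochberg adjusted p = 0.0401) with an exact permutation p of 0.0286, the smallest that 4 against 4 libraries can give. The untreated libraries of this test were among those used to choose the gene. Egfl7, on the other strand, shares 64 exon bases (3.00%) with Agpat2 and measured 45.4 ± 5.01, 35.5 ± 12.7 and 29.5 ± 6.09 CPM in WT, Mtmr2 KO and niacin-treated nerves. The part of its reads in the Agpat2 counts was not tested.

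Lpin1 (chr12:16535669-16610966, minus strand), the phosphatidate phosphatase, measured 78.8, 88.3, 73.4 and 60.7 CPM in WT, 67.4, 34.4, 107 and 45.0 CPM in Mtmr2 KO, and 44.1, 71.5, 55.1 and 65.0 CPM in niacin-treated Mtmr2 KO nerves. The library labelled Mtmr2 KO 4503 gave the highest Lpin1 level of all 12 and Mtmr2 KO 4502 the lowest, so that the untreated mutants spanned both other groups. Fitted log2 fold changes were -0.24 ± 0.28 in Mtmr2 KO against WT and -0.11 ± 0.28 under niacin against untreated Mtmr2 KO (edgeR quasi-likelihood, Benjamini-Hochberg adjusted p = 0.859; exact permutation p = 1).

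The final acylation has a pair of unrelated enzymes. Dgat2 (chr7:99153658-99182719, minus strand), the form linked to newly made fatty acids, measured 249, 354, 222 and 179 CPM in WT and 115, 36.2, 29.8 and 40.8 CPM in Mtmr2 KO nerves, and 76.5, 212, 134 and 202 CPM in niacin-treated Mtmr2 KO nerves. Every Mtmr2 KO library lay below every WT library, with 4501 nearest to them, and niacin-treated 4505 lay below Mtmr2 KO 4501. For Dgat2 the log2 fold change was -2.18 ± 0.43 in Mtmr2 KO against WT, a level 4.53 times lower and the largest difference of the 8 genes, and -2.82 without Mtmr2 KO 4501. Under niacin Dgat2 was 1.50 ± 0.42 higher on the log2 scale than in untreated Mtmr2 KO, which missed the threshold (edgeR quasi-likelihood, Benjamini-Hochberg adjusted p = 0.0866; exact permutation p = 0.0571), and 2.14 higher without Mtmr2 KO 4501. Leaving out any other library gave 1.29 to 1.72 under niacin.

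Dgat1 (chr15:76502015-76511953, minus strand), the form linked to re-esterification of fatty acids, measured 61.3, 65.8, 45.7 and 44.7 CPM in WT, 41.2, 35.7, 53.6 and 24.6 CPM in Mtmr2 KO, and 34.4, 58.0, 54.9 and 69.2 CPM in niacin-treated Mtmr2 KO nerves. All 3 groups overlapped, and the log2 fold changes were -0.49 ± 0.24 in Mtmr2 KO against WT and 0.48 ± 0.24 under niacin against untreated Mtmr2 KO (edgeR quasi-likelihood, Benjamini-Hochberg adjusted p = 0.287; exact permutation p = 0.2).

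The balance between both forms can be read without any scaling of the libraries, as the ratio of Dgat2 to Dgat1 in CPM per kb. It was 4.02, 5.34, 4.82 and 3.96 in WT, 2.76, 1.00, 0.552 and 1.65 in Mtmr2 KO, and 2.21, 3.62, 2.43 and 2.90 in niacin-treated Mtmr2 KO nerves. WT thus had the highest ratio in all 4 libraries against either mutant group. In Mtmr2 KO 4502 both forms were at about one level, and in the library labelled Mtmr2 KO 4503 Dgat1 exceeded Dgat2. The mean ratio was 4.53 ± 0.663 in WT, 1.49 ± 0.956 in Mtmr2 KO and 2.79 ± 0.624 in niacin-treated Mtmr2 KO nerves. Against WT, the niacin-treated ratio was lower by a log2 difference of -0.72 in 4 of 4 libraries (exact permutation p = 0.0286, the smallest possible). In that comparison 31.4% of all single genes had non-overlapping groups, which gives the same exact permutation p. Against untreated Mtmr2 KO it was higher by 1.12 (exact permutation p = 0.0857). The ratio was chosen after its values were seen.

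Pnpla3 (chr15:84167837-84187236, plus strand), a droplet protein of the patatin-like family, had the lowest count of the 8 genes, from 100 in the library labelled Mtmr2 KO 4503 to 1675 in WT 4498. It measured 32.1, 60.2, 29.9 and 22.8 CPM in WT, 11.4, 16.2, 3.20 and 6.06 CPM in Mtmr2 KO, and 13.8, 54.6, 49.6 and 48.3 CPM in niacin-treated Mtmr2 KO nerves. Mtmr2 KO and WT did not overlap, whereas niacin-treated 4505 lay between the untreated mutant libraries. The log2 fold change was -1.98 ± 0.49 in Mtmr2 KO against WT and 2.18 ± 0.50 under niacin against untreated Mtmr2 KO, a 4.53-fold rise (edgeR quasi-likelihood, Benjamini-Hochberg adjusted p = 0.0475; exact permutation p = 0.0571). Its untreated libraries were likewise among those used to choose the gene.

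Lpl (chr8:68880491-68907448, plus strand) measured 745, 705, 604 and 664 CPM in WT and 354, 518, 270 and 146 CPM in Mtmr2 KO nerves, with no overlap. It measured 471, 792, 778 and 839 CPM in niacin-treated Mtmr2 KO nerves, where 3 of 4 libraries exceeded every WT library and 4505 lay below Mtmr2 KO 4502. Lpl gave a log2 fold change of -1.08 ± 0.30 in Mtmr2 KO against WT and 1.16 ± 0.30 under niacin against untreated Mtmr2 KO, which missed the threshold (edgeR quasi-likelihood, Benjamini-Hochberg adjusted p = 0.0742; exact permutation p = 0.0571).

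**Figure D1:**
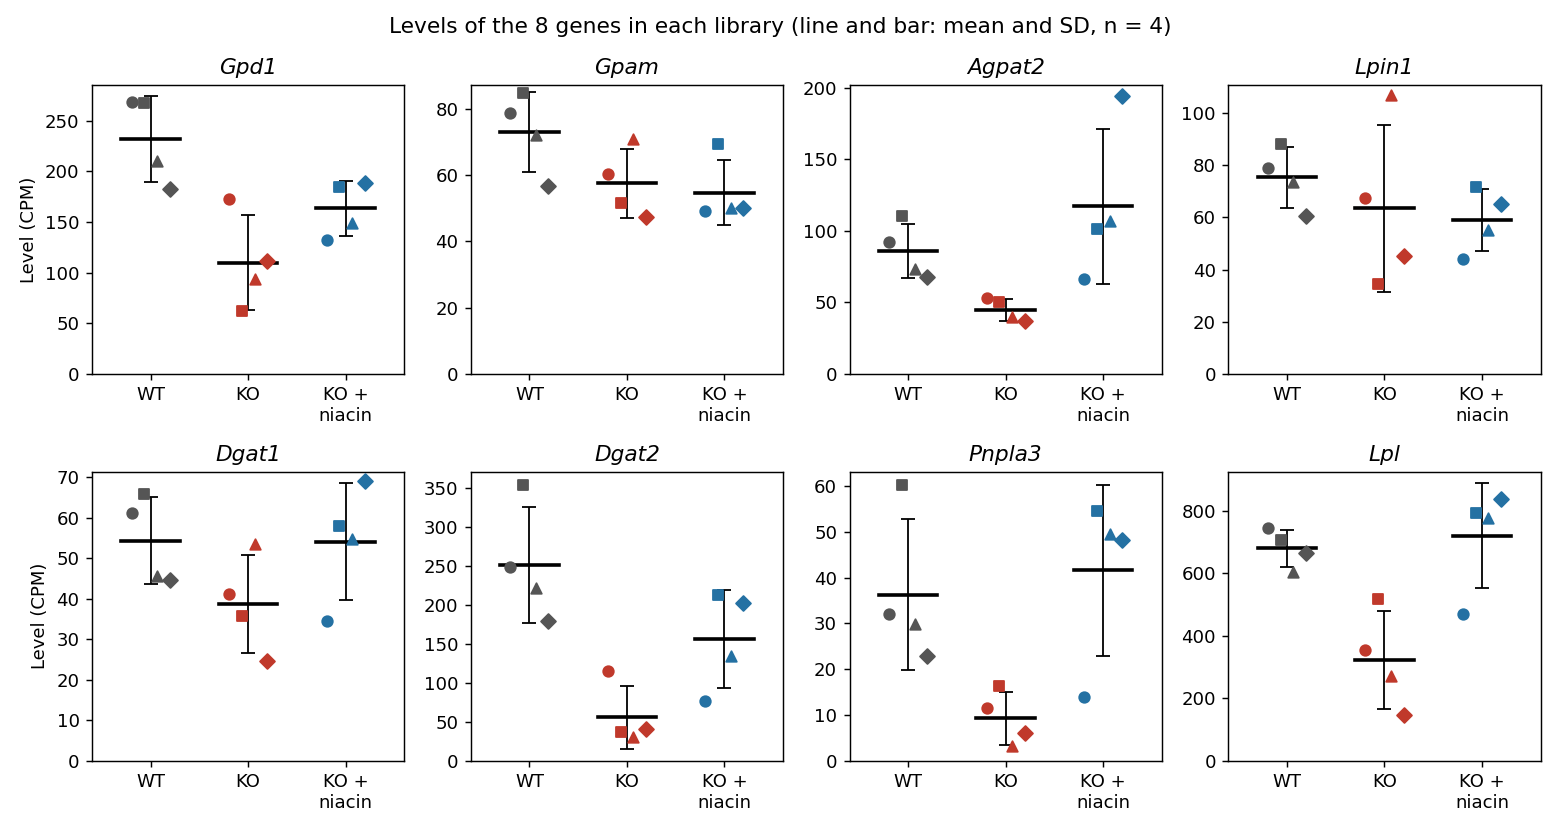
Level of each of the 8 genes (CPM, y axis from 0) in the 4 libraries of each group, where symbols mark the libraries in label order (circle, square, triangle, diamond) and the line and bar give mean and SD. For Gpd1, Agpat2, Dgat2, Pnpla3 and Lpl all Mtmr2 KO symbols lie below all WT symbols, and for Pnpla3 and Lpl 1 niacin-treated library (circle, 4505) lies apart from the other 3.

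In Mtmr2 KO against WT, the comparison with which the genes were chosen, all 8 had a lower mean and 5 had groups that did not overlap (Gpd1, Agpat2, Dgat2, Pnpla3 and Lpl). Over all genes tested, 5.46% had non-overlapping groups with Mtmr2 KO lower, and 46% had a lower mean in Mtmr2 KO. The median log2 fold change of the 8 was -1.01, against 0.0326 over all genes. Without the library labelled Mtmr2 KO 4503 all 8 were still lower, with log2 fold changes from -1.97 (Dgat2) and -1.69 (Pnpla3) to -0.62 (Lpin1) and -0.46 (Gpam). Since the values of this comparison chose the genes, nothing is read from these counts.

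In niacin-treated against untreated Mtmr2 KO, Agpat2 and Pnpla3 were called higher and none of the 8 was called lower. This comparison shares its untreated libraries with the one the genes were chosen on. Genes chosen for low values there tend to come out higher against them, so these calls are no independent test of a rise. The 2 genes called compare with 1.43% of all genes (0.695% called higher). The mean was higher in 6 of 8 genes and lower in Gpam and Lpin1, where 54.1% of all genes had a lower mean, with a median log2 fold change of 0.87 against -0.0352 over all genes. Agpat2 was the 1 gene with non-overlapping groups, where 3.6% of all genes did so with niacin higher and 7.01% in either direction. At an unadjusted p under 0.05 the count was 5, against 20.1% of all genes, and DESeq2 and limma-voom each called 4 (Agpat2, Dgat2, Lpl and Pnpla3), where they called 3.09% and 11.6% of all genes. Leaving out single libraries moved the calls over all genes and those of the 8. The count was 0 without WT 4497, 4498, 4499 or 4500, without the library labelled Mtmr2 KO 4503, or without niacin-treated 4506, 4507 or 4508, where edgeR called at most 0.436% of all genes. It was 1 without Mtmr2 KO 4501 (Dgat2, with 0.273% of all genes called) or 4504 (Agpat2, with 2.87%), 2 without niacin-treated 4505 (Agpat2 and Pnpla3, with 0.777%) and 4 without Mtmr2 KO 4502 (Agpat2, Dgat2, Lpl and Pnpla3, with 23.6%). Leaving out 1 library gave log2 fold changes of 1.03 to 1.58 for Agpat2 and 1.89 to 2.58 for Pnpla3. Without the library labelled Mtmr2 KO 4503 they were 1.33 for Agpat2, 1.89 for Pnpla3, 1.29 for Dgat2 and 1.09 for Lpl. Over all 23 alternatives the edgeR, DESeq2 or limma adjusted p ran from 9.84e-05 to 0.276 for Agpat2 and from 0.000847 to 0.304 for Pnpla3.

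In niacin-treated Mtmr2 KO against WT, which shares its libraries with both other comparisons, Gpd1 and Gpam had lower means than in WT, and Dgat1 and Lpl nearly equal ones. In all 5 of the 8 had a lower mean, as had 48.5% of all genes. edgeR called 0 of the 8, as it called 0% of all genes, and none of the 8 had non-overlapping groups, where 31.4% of all genes had. The log2 fold changes were -0.51 ± 0.25 for Gpd1 (163 ± 27.1 against 232 ± 42.6 CPM), -0.42 ± 0.17 for Gpam, 0.44 ± 0.27 for Agpat2, -0.35 ± 0.28 for Lpin1, -0.01 ± 0.24 for Dgat1, -0.68 ± 0.41 for Dgat2 (156 ± 63.3 against 251 ± 74.7 CPM), 0.20 ± 0.47 for Pnpla3 and 0.08 ± 0.30 for Lpl (720 ± 168 against 680 ± 60.0 CPM). Their quasi-likelihood p-values, adjusted over all genes by Benjamini-Hochberg in edgeR, ran from 0.166 (Gpam) to 0.987 (Dgat1), and their exact permutation p-values from 0.0571 to 0.914. At an unadjusted p under 0.05 the count was 1 (Gpam), against 24.7% of all genes, and DESeq2 on all libraries called 0, with 3.3% of all genes called. When only these groups were fitted, edgeR and DESeq2 each called 2 (Gpam and Gpd1, both lower under niacin), where they called 33.9% and 17.8% of all genes. On all libraries limma-voom called 4 (Dgat2, Gpam, Gpd1 and Lpin1) and 42.4% of all genes, and none of these counts is read as a result about the 8. The differences of Dgat1, Pnpla3 and Lpl from WT are within 1 SE of 0, which does not show that their levels were equal.

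**Figure D2:**
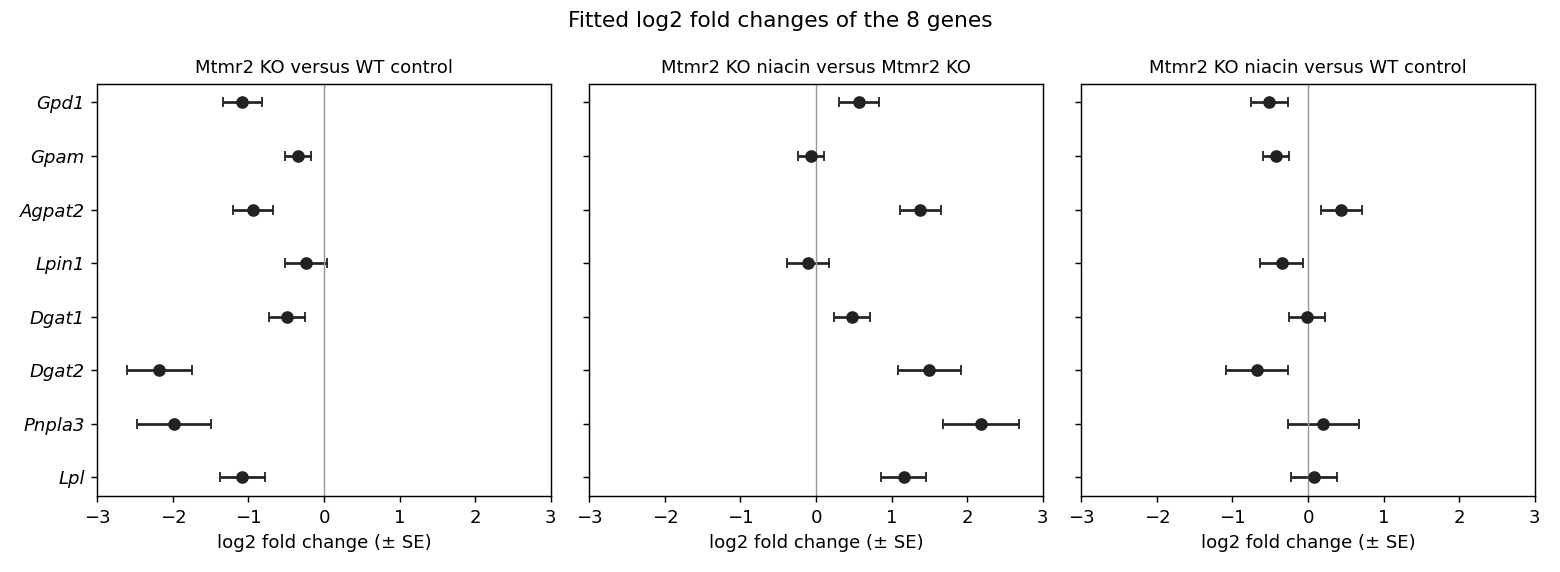
Fitted log2 fold change (x axis, with 1 SE) of the 8 genes in each of the 3 comparisons, from edgeR on all 12 libraries. Dgat2 (-2.18) and Pnpla3 (-1.98) lie farthest left in Mtmr2 KO against WT, Pnpla3 (2.18), Dgat2 (1.50) and Agpat2 (1.38) farthest right under niacin, and the values against WT under niacin run from -0.68 to 0.44.

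The 8 genes did not vary alike within groups. In WT the coefficient of variation ran from 8.83% (Lpl) to 45.4% (Pnpla3), and in Mtmr2 KO from 17.2% (Agpat2) to 71.8% (Dgat2). WT 4498 was the highest WT library in 6 of the 8 genes and WT 4500 the lowest in 7. Niacin-treated 4505 was the lowest of its group in all 8, and 4506 and 4508 were each the highest in 4. The untreated mutants showed no such common order, since 4501, 4502 and 4503 were each the highest in some genes and 4504 the lowest in 4. Summed over the 8 genes, levels were 1278 to 1736 CPM in WT, 457 to 875 CPM in Mtmr2 KO, and 888, 1542, 1377 and 1656 CPM in niacin-treated Mtmr2 KO nerves.

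How alike the genes were across the 12 libraries was measured as the root mean square difference of their log2 CPM profiles, each centred on its own mean, where 0 means the same course. Gpam and Lpin1 were the closest pair (0.27), followed by Lpin1 and Dgat1 (0.34) and by Gpam and Dgat1 (0.35). Lpl and Agpat2 lay 0.40 apart, and Dgat2 and Pnpla3 were nearest to each other or to Gpd1, at 0.63 to 0.66. Pnpla3 lay farthest from Lpin1 (1.32). Dgat1 and Dgat2, genes of the same enzymatic step, lay 0.92 apart. The measure is not scaled for how much a gene varies. Measured from its own mean, Gpam varied by 0.28, Dgat1 by 0.42 and Lpin1 by 0.44, but Dgat2 by 1.15 and Pnpla3 by 1.27. Distances between these genes therefore depend on the size of variation as well as on its course. Libraries are shared by all these distances, so they are a description.

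**Figure D3:**
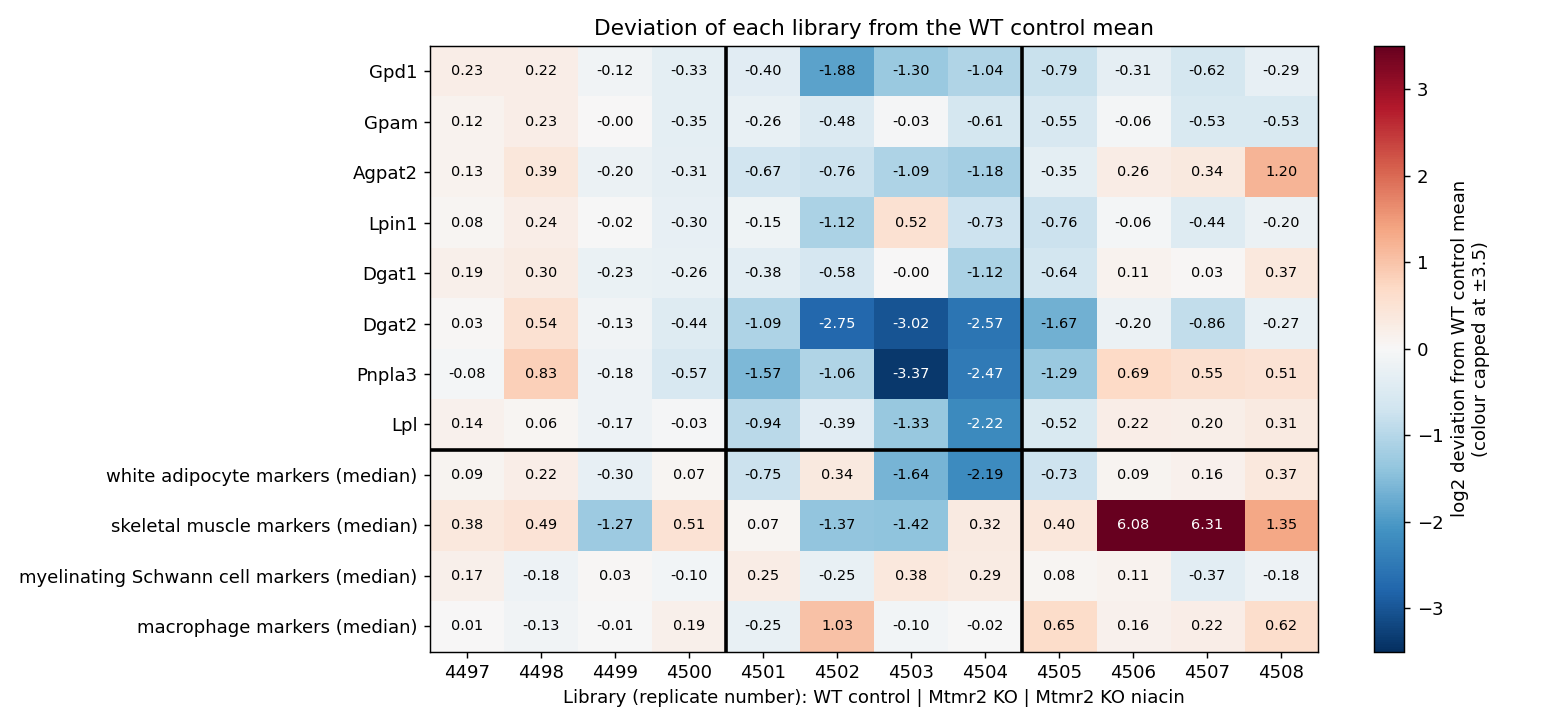
Deviation of each library from the WT mean (log2, colour and printed value) for the 8 genes and for the median of 4 marker lists, with lines between WT, Mtmr2 KO and niacin-treated Mtmr2 KO libraries. Dgat2 reaches -3.02 and Pnpla3 -3.37 in the library labelled Mtmr2 KO 4503, where Lpin1 is at 0.52, and Mtmr2 KO 4502 has Dgat2 at -2.75 while its white adipocyte median is at 0.34.

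White adipocyte markers differed between the same libraries. All 12 listed markers were detected in every library. They summed to 4530 to 5980 CPM in WT, to 3383, 7941, 3353 and 1214 CPM in Mtmr2 KO and to 3902, 6053, 7004 and 7980 CPM in niacin-treated Mtmr2 KO nerves. Among them, Cfd measured 1374 ± 174, 987 ± 964 and 1620 ± 436 CPM, Car3 1712 ± 202, 1199 ± 1255 and 2293 ± 588 CPM, and Fabp4, a fatty acid carrier, 884 ± 127, 722 ± 403 and 1005 ± 349 CPM in the same order of groups. In the library labelled Mtmr2 KO 4503, Plin4 gave 1183 of the 3353 CPM, against 241 to 322 CPM of Plin4 in WT. The median log2 deviation of the markers from the WT mean was -0.75 in Mtmr2 KO 4501 and -1.64 in 4503. Of the 12 markers, 11 (all but Plin4) had a lower mean in Mtmr2 KO than in WT, with a median log2 fold change of -0.52. Lep and Plin1 fell (edgeR, Benjamini-Hochberg adjusted p = 0.0364 and 0.0448), where 0.267% of all genes were called. Under niacin 11 (all but Plin4) had a higher mean than in untreated Mtmr2 KO, with a median of 0.70. Lep rose (edgeR, adjusted p = 0.0383), where 1.43% of all genes were called. The 12 markers were listed with earlier results of these data known, so these p-values are no independent test. Nerve was sequenced in bulk, so fewer adipocytes and less of these RNAs per adipocyte cannot be told apart.

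Mtmr2 KO 4502 had all 8 genes below every WT library, but white adipocyte markers on both sides of the WT range. Its adipocyte sum of 7941 CPM was above every WT library, and its Adipoq, at 443 CPM, exceeded the WT range of 217 to 297 CPM. Car3 (3017 CPM), Cfd (2396 CPM), Fabp4 (1230 CPM), Cidec and Retn also exceeded WT there. In the same library Dgat2 was at 36.2 CPM and Gpd1 at 62.1 CPM, the lowest Gpd1 level of all 12. Agpat2, Pnpla3 and Lpl were also below every WT library, as were Gpam (51.7 CPM), Lpin1 (34.4 CPM) and Dgat1 (35.7 CPM). Pnpla3 (16.2 CPM) and Lpl (518 CPM) were nevertheless the highest of the Mtmr2 KO libraries there. Plin1, the coat protein of adipocyte droplets, and Lipe, the hormone-sensitive lipase, were low there too, at 49.0 and 41.7 CPM against 157 to 242 and 143 to 192 CPM in WT. Lep (12.7 CPM), Thrsp (75.5 CPM) and Plin4 (227 CPM) also lay below WT, at 39.6 to 77.7, 108 to 328 and 241 to 322 CPM. In Mtmr2 KO 4504 the genes and the markers were both low, with the lowest adipocyte sum (1214 CPM) and the lowest Lpl (146 CPM). The part of adipocyte content in the differences of the 8 genes was not tested.

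**Figure D4:**
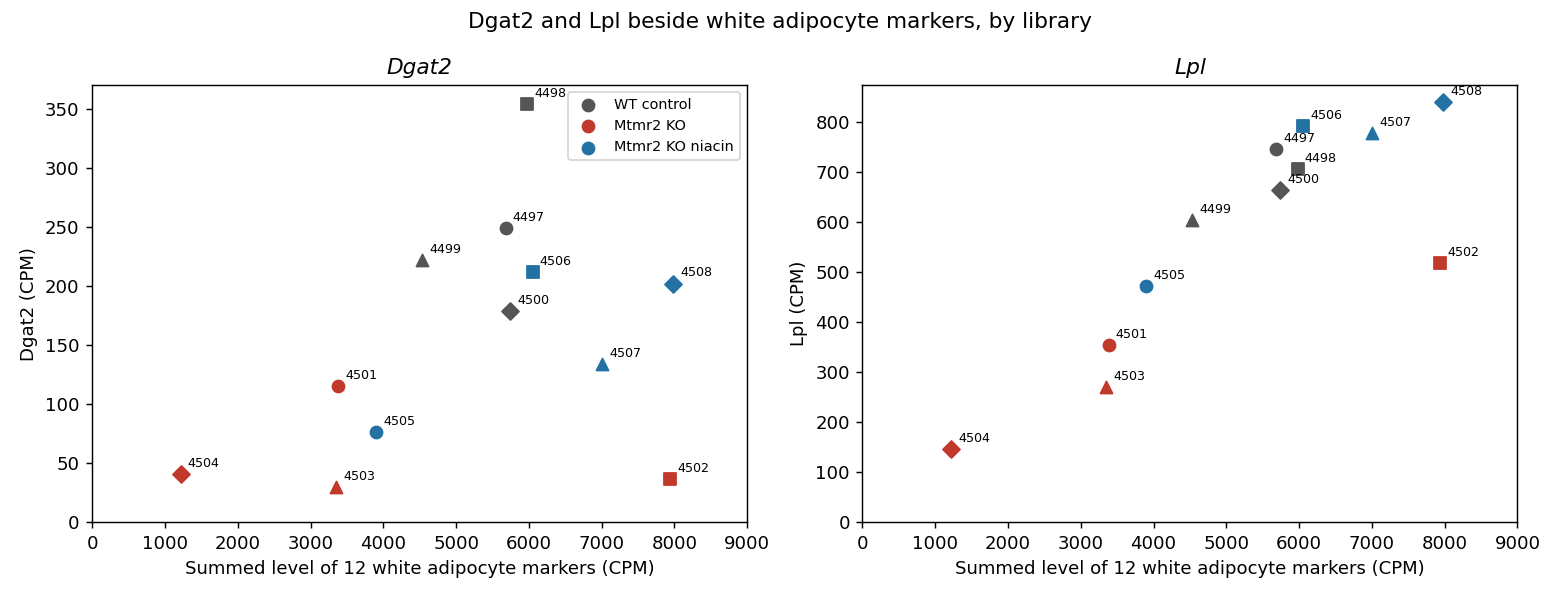
Dgat2 (left) and Lpl (right) in CPM against the summed level of 12 white adipocyte markers in CPM, 1 symbol per library with its number, coloured by group. Mtmr2 KO 4502 lies at 7941 CPM of markers with Dgat2 at 36.2 CPM and Lpl at 518 CPM, while Mtmr2 KO 4504 is lowest in markers (1214 CPM) and in Lpl (146 CPM). For the library labelled Mtmr2 KO 4503 the marker sum includes 1183 CPM of Plin4.

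Other cell types differed between niacin-treated and other libraries. Of 9 skeletal muscle markers tested, 6 rose under niacin against untreated Mtmr2 KO, among them Acta1 at 226 ± 246 CPM and Tnnt3 at 378 ± 417 CPM, through 4506 and 4507. Pvalb, at 183 ± 201 CPM, did not pass (edgeR, adjusted p = 0.0516). The tenth listed marker, Tnnc2, was at 0 in most libraries. Muscle expresses Lpl and Gpd1, and the part of muscle RNA in their levels was not tested. The log2 fold changes under niacin against untreated Mtmr2 KO were also fitted without both 4506 and 4507. They were 1.51 for Agpat2, 1.31 for Dgat2, 1.74 for Pnpla3, 1.01 for Lpl and 0.52 for Gpd1. In that fit edgeR called none of the 8 (adjusted p of 0.276 for Agpat2 and 0.304 for Pnpla3), but it called 0% of all genes. The lack of calls there therefore does not show whether the calls of Agpat2 and Pnpla3 depended on muscle RNA. All 9 myelinating Schwann cell markers reported had a lower mean under niacin than in untreated Mtmr2 KO, with a median log2 fold change of -0.53 and none called. They summed to 55306 to 68796 CPM in WT, 74032 to 83923 CPM in Mtmr2 KO and 53699 to 79309 CPM in niacin-treated Mtmr2 KO nerves, with Pmp22 at 26081 ± 2395, 31620 ± 2209 and 28004 ± 4168 CPM and Mbp and Prx also among them. Brown adipocyte markers (Cox8b, Cidea and Ppargc1a lead by CPM per kb in WT) summed to at most 41.5 CPM with none called. Their defining member Ucp1 measured 0.171 to 5 CPM in WT, 0 to 0.209 CPM in Mtmr2 KO and 0 to 0.472 CPM in niacin-treated Mtmr2 KO nerves. The other lists, macrophage (Lyz2, Csf1r and Mrc1 lead), endothelial cell (Cldn5, Cdh5 and Pecam1) and a joint list of perineurial cell and endoneurial fibroblast (Dcn, Lum and Itgb4), had no call in these comparisons. Over all genes edgeR called 0.267% in Mtmr2 KO against WT and 1.43% under niacin against untreated Mtmr2 KO. Under niacin against WT it called 0%, so no list could have a call there. Macrophage markers summed to 524 to 587 CPM in WT, 468 to 1100 CPM in Mtmr2 KO and 618 to 871 CPM under niacin. In the same order, endothelial markers gave 458 to 511, 216 to 564 and 239 to 360 CPM. The joint list gave 4500 to 4911, 4133 to 8569 and 5823 to 7191 CPM.

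Around the 8 genes, 51 other genes of triglyceride and branching phospholipid synthesis were followed, of which 48 passed the filter. Dgat2l6, Pnpla1 and Pnpla5 did not, all under 1 CPM in every library. edgeR called 0 of the 48 in each of the 3 comparisons, where it called 0.267%, 1.43% and 0% of all genes. In Mtmr2 KO against WT 37 of 48 had a lower mean, with a median log2 fold change of -0.19, and 12 had an unadjusted p under 0.05, against 17.2% of all genes. The groups did not overlap in 4, all lower in Mtmr2 KO, against 5.46% of all genes. These were Aqp7, a glycerol channel, Pck1, the enzyme of glyceroneogenesis, Acsl1, a synthetase that activates fatty acids, and Fitm2, which helps bud droplets. DESeq2 called 3 (Acsl1, Aqp7 and Pck1) and limma-voom 4 (Aqp7, Bscl2, Cd36 and Pck1), where they called 1.94% and 0.626% of all genes. Without Mtmr2 KO 4501 edgeR called 2 (Aqp7 and Cds1, with 2.6% of all genes called), and 1 (Aqp7) without Mtmr2 KO 4502, Mtmr2 KO 4504 or niacin-treated 4505 (0.446%, 1.54% and 0.291%).

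Glycerol 3-phosphate can also come from Pck1, which measured 405, 288, 329 and 346 CPM in WT, 152, 128, 252 and 52.9 CPM in Mtmr2 KO, and 148, 196, 242 and 179 CPM in niacin-treated Mtmr2 KO nerves. Its niacin-treated libraries all lay below WT, with a log2 fold change of -0.84 ± 0.33 (edgeR, Benjamini-Hochberg adjusted p = 0.163; exact permutation p = 0.0286), and overlapped the untreated mutants (0.39 ± 0.33). Niacin-treated and WT groups did not overlap in 31.4% of all genes. Gpd1l, a relative of Gpd1 in the same reaction, measured 88.1 ± 6.20, 87.6 ± 17.3 and 79.4 ± 16.4 CPM in WT, Mtmr2 KO and niacin-treated Mtmr2 KO nerves. Acsl1 measured 313 ± 70.5, 180 ± 62.2 and 242 ± 47.4 CPM.

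Relatives at the acylation steps were followed too. Gpat4, the main GPAT of the endoplasmic reticulum by level here, measured 90.9 ± 1.89, 88.2 ± 7.44 and 99.7 ± 8.55 CPM in WT, Mtmr2 KO and niacin-treated Mtmr2 KO nerves. Gpat3, also of the endoplasmic reticulum, measured 28.9 ± 5.04, 15.3 ± 9.41 and 25.3 ± 6.14 CPM, with log2 fold changes of -0.91 ± 0.40 in Mtmr2 KO against WT and 0.72 ± 0.40 under niacin against untreated Mtmr2 KO that did not pass (edgeR, adjusted p = 0.268 and 0.337). Agpat3 measured 312 ± 28.6, 300 ± 86.1 and 225 ± 45.9 CPM and Agpat1 108 ± 8.92, 88.3 ± 24.8 and 66.2 ± 12.1 CPM. Both had a lower mean under niacin than in untreated Mtmr2 KO, at -0.42 ± 0.21 and -0.42 ± 0.20 on the log2 scale, where Agpat2 had 1.38 ± 0.27. Their niacin-treated libraries all lay below WT, at -0.47 ± 0.21 for Agpat3 and -0.70 ± 0.20 for Agpat1 (edgeR, adjusted p = 0.189 and 0.0946). Of all genes, 31.4% had non-overlapping groups in that comparison. Ctdnep1, the phosphatase that activates lipins, measured 41.9 ± 1.4, 37.6 ± 4.12 and 28.4 ± 2.42 CPM, and its niacin-treated libraries lay below both other groups. Its log2 fold change under niacin was -0.40 ± 0.11 against untreated Mtmr2 KO and -0.56 ± 0.11 against WT, neither of which passed (edgeR, Benjamini-Hochberg adjusted p = 0.0862 and 0.0833; exact permutation p = 0.0286 for both). Groups did not overlap in 7.01% of all genes against untreated Mtmr2 KO and in 31.4% against WT.

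Beside the DGATs, Mogat1, which makes diacylglycerol from monoacylglycerol, was scarce at 1.32 ± 0.371, 0.562 ± 0.415 and 1.67 ± 0.685 CPM, with a log2 fold change under niacin of 1.59 ± 0.45 against untreated Mtmr2 KO (edgeR, adjusted p = 0.0907; exact permutation p = 0.0571). Bscl2, the seipin of droplet assembly whose loss also causes lipodystrophy, measured 90.3 ± 4.61, 70.4 ± 15.0 and 88.3 ± 8.29 CPM. Pnpla2, the main triglyceride lipase and a relative of Pnpla3, measured 373 ± 21.6 CPM in WT, 281, 179, 535 and 150 CPM in Mtmr2 KO, and 218 ± 58.5 CPM in niacin-treated Mtmr2 KO nerves, where all libraries lay below WT (log2 fold change -0.77 ± 0.33; edgeR, adjusted p = 0.177; exact permutation p = 0.0286). Under niacin 31.4% of all genes had groups that did not overlap with WT. Cd36, a fatty acid transporter downstream of Lpl, measured 397 ± 46.8, 238 ± 145 and 425 ± 110 CPM. Angptl4, a secreted inhibitor of Lpl, measured 56.0 ± 6.03, 106 ± 82.4 and 42.6 ± 12.1 CPM, with 223 CPM in the library labelled Mtmr2 KO 4503. Pcyt2, of the phospholipid branch, measured 236 ± 10.5, 211 ± 61.9 and 204 ± 15.0 CPM. Gpd1l, Gpat3, Agpat1 and Angptl4 were named after their values were seen.

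Under niacin against untreated Mtmr2 KO, 28 of the 48 had a higher and 20 a lower mean, with a median log2 fold change of 0.07 and 16 at an unadjusted p under 0.05, against 20.1% of all genes. Groups did not overlap in 5, against 7.01% of all genes, with Acsl3, Acsl4 and Mogat2 higher and Ctdnep1 and Pnpla7 lower. Against WT, 30 had a lower mean, the median was -0.15, 12 had an unadjusted p under 0.05 (24.7% of all genes) and 16 had non-overlapping groups (4 higher and 12 lower), where 31.4% of all genes had. Both counts of calls depended on Mtmr2 KO 4502. Without it edgeR called 19 of the pathway genes under niacin against untreated Mtmr2 KO and 13 against WT, where it then called 23.6% and 21.6% of all genes. Without Mtmr2 KO 4504 the count was 2 in the former comparison (2.87% of all genes), and without the library labelled Mtmr2 KO 4503 it was 2 in the latter (1.74%).

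**Figure D5:**
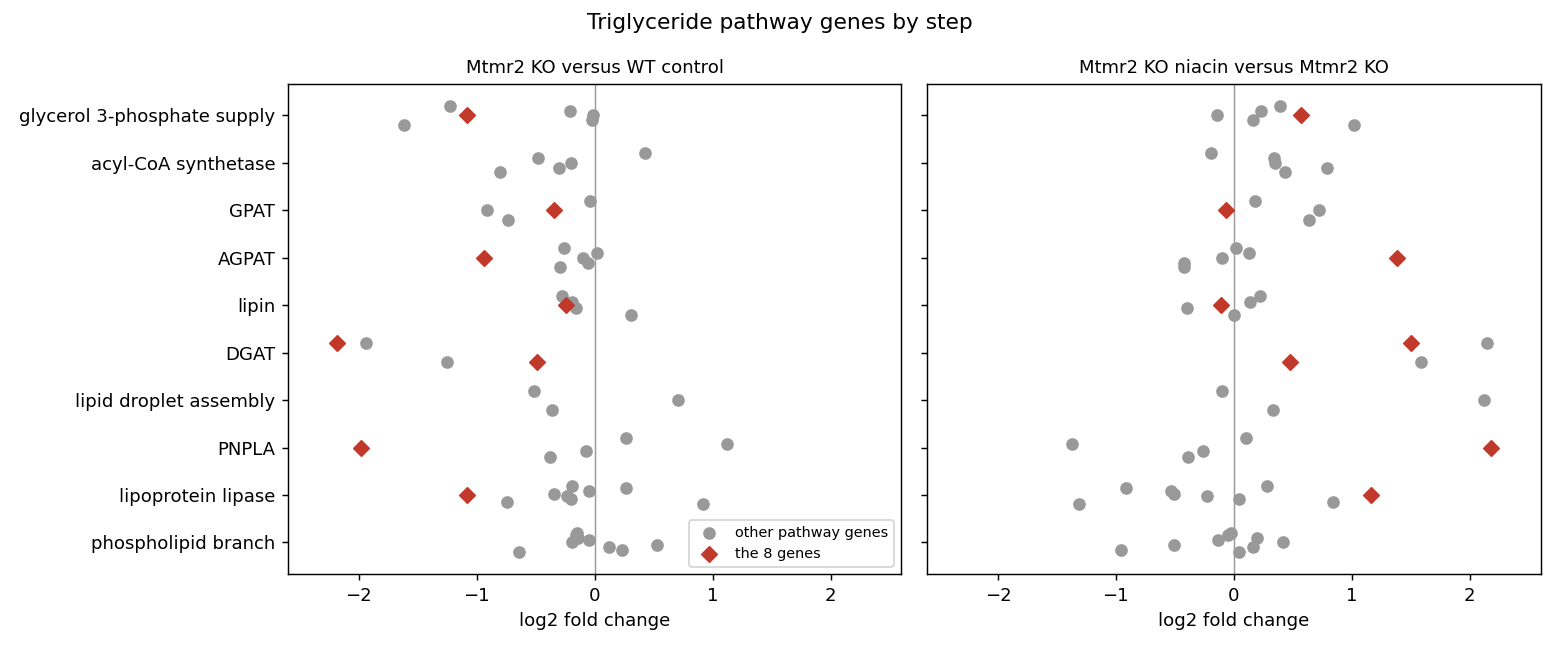
Fitted log2 fold changes (x axis) of the 8 genes (diamonds) and of the 48 other pathway genes that passed the filter (circles), by step of the pathway, in Mtmr2 KO against WT (left) and niacin-treated against untreated Mtmr2 KO (right). At the AGPAT step Agpat2 lies at -0.94 and 1.38 while the other genes of the step run from -0.29 to 0.02 and from -0.42 to 0.13.

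Over all tested genes, the profiles nearest to each of the 8 were found with the same root mean square measure over the 12 libraries. Dgat2 was nearest to Scd1 (0.29, against 1.18 for the median gene), the desaturase that supplies monounsaturated fatty acids, at 4571, 1388 and 3786 CPM in the means of WT, Mtmr2 KO and niacin-treated Mtmr2 KO nerves. Next came Ptger3 (0.38) and H2-Q10 (0.41), the latter of a family of near-identical genes that reads may not tell apart. Ptger3, a prostaglandin E receptor, was also among the 3 nearest to Pnpla3 (0.49), with Als2cr12 (0.47) and Orm1 (0.51), against 1.31 for the median gene. Lpl was nearest to Cd1d1 (0.14), Lgals12 (0.24), a galectin of adipocyte droplets, and Pfkfb1 (0.25), and Agpat2 to Pygl (0.22), Cd1d2 (0.29) and Nrg4 (0.30). Gpd1 was nearest to Cacna1c, Gpt and Ppp2r5a (0.22 to 0.23), and Dgat1 to the peroxisomal gene Pex11a (0.12), Aox1 (0.15) and Pex16 (0.19). Gpam was nearest to Sorl1, Lrrk1 and Akap1 (0.10 to 0.12), and Lpin1 to Boc, Esrra and Pitpnm2 (0.14 to 0.18). Gpam, Lpin1 and Dgat1 varied less than the other genes by this measure (0.28, 0.44 and 0.42 from their own means). The median gene was therefore also nearer to them (0.43, 0.55 and 0.54). Likeness of profiles over libraries that differ in cell content is a description only.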

How the data were processed

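Sciatic nerve polyA RNA from 12 mice was sequenced (2 x 150 bp paired reads), and the authors aligned reads to GRCm38/mm10 with STAR. The deposited table holds raw gene counts, 1 column per library. No source used here names the counting tool or its strand setting. The authors' comparison tables, made with DESeq2, also hold fold changes and p-values, which were not used. They served only to pair identifiers with symbols, which were found for 42615 of 43432 genes.

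Counts were filtered and fitted together over the 3 groups with edgeR 4.0.16 (filterByExpr, TMM, quasi-likelihood), in R 4.3.3, with Benjamini-Hochberg adjustment over 17257 genes and a threshold of 0.05. The study used DESeq2, here version 1.42.0, as an alternative beside limma 3.58.1 (voom). Single genes were also tested by a two-sided exact permutation test of mean log2 CPM (prior count 2) over 70 ways to draw 4 of 8 libraries, with a smallest p of 0.0286. Exon lengths came from GENCODE M21. Scripts were tested on simulated data. The genes and gene lists were chosen with earlier results of these data known. Named were the 8 genes, the most abundant gene of each pathway step, the 3 most abundant of each marker list and the 3 nearest profiles per gene, others being named as chosen after values were seen or by a count of 5 or fewer. Depth, 20763951 to 33191106 counts per library, gave each of the 8 genes at least 100 counts, so the spread between mice, not counting error, limits precision. No pair of libraries of the same group agreed within sampling noise. One Schwann cell marker of the list is not reported here and was left out of its counts and sums.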

Additional observations from a re-analysis of the deposited data

Results flagged for a closer look

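Of 24 sets of 4 values (8 genes in 3 groups), 4 held a library far from the other 3, by a gap divided by the range of the group above Dixon's critical value. Chance gives about 1 in 20 such sets. Dgat2 in Mtmr2 KO was highest in 4501, at 115 CPM against 29.8 to 40.8 CPM in the other 3 (0.87). Gpam in niacin-treated Mtmr2 KO was highest in 4506, at 69.5 CPM against 49.2 to 50.1 CPM (0.956). Pnpla3 in niacin-treated Mtmr2 KO was lowest in 4505, at 13.8 CPM against 48.3 to 54.6 CPM (0.847), and so was Lpl, at 471 CPM against 778 to 839 CPM (0.832). White adipocyte markers in 4505 summed to 3902 CPM, the lowest of the niacin-treated libraries, and their part in these values was not tested.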

How the results depend on the processing

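No paired analysis was possible because the groups share no replicate numbers. Gpd1, Agpat2, Dgat1, Dgat2, Pnpla3 and Lpl kept their direction under all 23 alternatives in Mtmr2 KO against WT and under niacin against untreated Mtmr2 KO. Counts of calls did not keep their size, and the cause was not tested.

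The share of all genes called by the same fit follows each count, except for the ranges over fits that leave out 1 library. Of the 8 genes, Mtmr2 KO against WT, which chose them, gave 0 calls (0.267%), and nothing is read from its counts. DESeq2 gave 5 on all libraries (1.94%) and 5 on the groups compared alone (1.32%), limma-voom 2 (0.626%), library totals alone 1 (0.527%), no filter 5 (1.01%), and leaving out 1 library 0 to 2. Niacin-treated against untreated Mtmr2 KO gave 2 (1.43%). DESeq2 on all libraries (3.09%) and on the groups compared alone (1.34%), limma-voom (11.6%) and no filter (1.69%) gave 4 each, and library totals alone 3 (Agpat2, Lpl and Pnpla3, 1.58%). edgeR on the groups compared alone gave 0 (0%), at least 10 counts in every library 1 (1.44%), Xist as a covariate 1 (0.29%), and leaving out 1 library 0 to 4. Niacin-treated Mtmr2 KO against WT gave 0 (0%). On the groups compared alone DESeq2 (17.8%) and edgeR (33.9%) gave 2 each, limma-voom gave 4 (42.4%), and leaving out 1 library 0.

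Of the 48 pathway genes, each comparison gave 0. With the shares just given, in Mtmr2 KO against WT DESeq2 gave 3 on all libraries and 2 on the groups compared alone, limma-voom 4, totals alone 1, no filter 2, and leaving out 1 library 0 to 2. For niacin against untreated Mtmr2 KO the same DESeq2 fits gave 7 and 2, limma-voom 14, no filter 4, and leaving out 1 library 0 to 19. For niacin-treated Mtmr2 KO against WT they gave 4 (3.3%) and 20 (17.8%), limma-voom 22 (42.4%), edgeR on the groups compared alone 17 (33.9%), no filter 2 (0.918%), and leaving out 1 library 0 to 13.

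Chosen after seeing the data, leaving out niacin-treated 4506 and 4507 together gave 0 of the 8 for niacin against untreated Mtmr2 KO (0%). Leaving out Mtmr2 KO 4502 and 4503 together gave 3 of the 8 (Agpat2, Lpl and Pnpla3) and 13 pathway genes there (12.5%) and, for niacin-treated Mtmr2 KO against WT, 2 of the 8 (Gpam and Gpd1) and 16 pathway genes (29.6%).

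Of the fold changes, 12 changed sign under at least 1 alternative, in 28 values in all. With limma-voom these were Gpat4 (0.01) and Pcyt2 (0.04) in Mtmr2 KO against WT, Lpin1 (0.01) under niacin against untreated Mtmr2 KO and Dgat1 (0.02) against WT. With totals alone, which moved the median of all genes under niacin against untreated Mtmr2 KO from -0.04 to 0.07, they were Gpam (0.03) and Pcyt2 (0.05) there and Dgat1 (0.03) against WT, and Dgat1 (0.01) with at least 10 counts. Leaving out 1 library turned the following, with the lowest and highest value over such fits: Dgat1 against WT (-0.15 to 0.15; 0.05 without WT 4497, 0.09 without WT 4498, 0.15 without 4505), Bscl2 (-0.07 to 0.03; 0.03 without 4505) and Cd36 (-0.03 without 4508, to 0.25) against WT, and, against untreated Mtmr2 KO, Pcyt2 (-0.20 to 0.12; 0.12 without 4501, 0.04 without 4504), Gpam (-0.22 to 0.04), Lpin1 (-0.33 to 0.27) and Pnpla2 (-0.60 to 0.10), each highest without 4503, and Lpin1 (0.01) without 4505. Agpat3 in Mtmr2 KO against WT ran from -0.22 to 0.11, the latter without 4502. Without both 4506 and 4507, Pnpla3 (-0.27), Lpl (-0.09) and Cd36 (-0.02) turned against WT. Without both 4502 and 4503, Gpat4 (0.06) and Pcyt2 (0.16) turned in Mtmr2 KO against WT, and Gpam (0.01), Lpin1 (0.06) and Pnpla2 (0.01) under niacin against untreated Mtmr2 KO.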
